A study of Mus musculus with 6 samples.

Results

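The interferon response genes described here are 44 genes that interferons induce in most cells or that act in the response. They were chosen by gene symbol and grouped as Oas, Ifit, Ifi, Irf and Trim genes and others, and all 44 were found among the 41195 genes of the tables. RNA-seq was performed on γδ thymocytes, the thymic T cells with a γδ T cell receptor, in 3 libraries of poly(A) RNA from *Rag1Cre-Nfatc1fl/fl* mice and 3 from the *Nfatc1fl/fl* controls. Both groups carry *Nfatc1* alleles with loxP sites around exon 3, on the C57/B6 background at a few weeks of age per the study's methods. The *Rag1Cre-Nfatc1fl/fl* mice also make Cre recombinase from the *Rag1* locus, which is active in early thymocytes, to delete that exon. *Nfatc1* encodes a transcription factor that calcium signals activate in T cells. The cells were enriched with magnetic beads and no treatment was given. Whether replicates came from separate animals is not labelled, and a p-value here measures the spread between libraries alone, which may be technical.

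Interferons are cytokines of antiviral defence. Type I interferons (IFN-α and IFN-β) bind the receptor IFNAR, type II (IFN-γ) binds IFNGR, and type III binds IFNLR. The receptors act through the kinases JAK1, JAK2 and TYK2. Type I and III signals form the factor ISGF3, of which STAT2 and IRF9 are parts and which binds the interferon-stimulated response element, while IFN-γ signals act on the gamma-activated site. The genes switched on encode sensors of foreign RNA and DNA, enzymes that degrade RNA or block translation, GTPases that attack pathogen compartments, and feedback inhibitors. In the mouse thymus type I interferon is made without infection, and thymocytes respond to it late in their maturation.

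Each library held 20734771 to 22638531 counted reads, of which 94.1% to 95.4% were counted as unique in the tables. The reads of the 44 genes took 0.303%, 0.301% and 0.302% of the total in *Rag1Cre-Nfatc1fl/fl* replicates 1, 2 and 3, against 0.264%, 0.215% and 0.221% in the controls. Every member had at least 1 read in every library, and in 39 of them at least 95% of the reads were unique in each. Of the 8 fixed γδ T cell markers all were read, with a summed level of 3025 to 3103 CPM (reads scaled to a common library size with TMM, the unit of expression here) in the *Rag1Cre-Nfatc1fl/fl* libraries and 3097 to 3286 CPM in the controls. Of the 8, 2 were called lower (3.51% of all tested genes) and 6 were not called. In 4 every *Rag1Cre-Nfatc1fl/fl* library lay below every control (23.4% of all tested genes), and in 2 every one lay above (23.3%). *Nfatc1* itself stood at 371 ± 63.8 CPM in the libraries labelled *Rag1Cre-Nfatc1fl/fl* and at 204 ± 5.76 CPM in the controls (SD, n = 3). Counts of the whole gene do not measure exon 3 and are no check of the deletion or of the labels. No replicates were alike within sampling noise, and *Rag1Cre-Nfatc1fl/fl* replicate 3 stood farthest from its group (chi-square per degree of freedom 59.3 and 66.1 against replicates 2 and 1, and 7.49 to 16.7 for the other pairs of replicates).

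The response element is part of many interferon-induced promoters, and those of genes on which the results turn are printed here to show where it lies. RefSeq promoters of GRCm38.p6, from 250 bases before to 50 after each annotated start, matched 34 of the 44 genes by symbol, with 41 starts. The core of the element, GAAA, any 2 bases and GAAA again, was searched on both strands. It was found in 19 of the 34 genes (55.9%), against 3.99% of 27025 genes in the table. By promoter the share was 48.8% of 41, against 3.44% of 32851. With a C required after the second GAAA, it was found in 15 of the 34 genes (44.1%, against 0.944% of all genes). The gamma-activated core TTCNNNGAA was found in 11 of the 34 (32.4%, against 9.55% of all genes), on both strands since it reads alike on either. Capitals mark the GAAA core or its reverse complement, and overlapping matches run together.
*Oas3*, chr5:120777610-120777909, minus strand: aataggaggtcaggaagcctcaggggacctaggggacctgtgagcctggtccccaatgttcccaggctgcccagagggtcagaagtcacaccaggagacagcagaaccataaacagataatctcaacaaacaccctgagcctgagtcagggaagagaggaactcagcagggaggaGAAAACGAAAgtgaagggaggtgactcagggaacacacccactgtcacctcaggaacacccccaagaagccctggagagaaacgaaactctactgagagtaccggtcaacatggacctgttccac
*Oas1a*, chr5:120907505-120907570, minus strand: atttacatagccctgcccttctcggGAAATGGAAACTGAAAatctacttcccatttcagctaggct
*Ifit3*, chr19:34583348-34583441, plus strand: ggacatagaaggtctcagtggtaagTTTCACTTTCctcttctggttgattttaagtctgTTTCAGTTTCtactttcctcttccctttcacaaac
*Ifit1*, chr19:34640760-34640838, plus strand: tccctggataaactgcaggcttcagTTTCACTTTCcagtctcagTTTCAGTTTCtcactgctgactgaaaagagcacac
*Isg15*, chr4:156200850-156200921, minus strand: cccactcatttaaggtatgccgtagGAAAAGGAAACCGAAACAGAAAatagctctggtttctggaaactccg
*Bst2*, chr8:71537562-71537627, minus strand: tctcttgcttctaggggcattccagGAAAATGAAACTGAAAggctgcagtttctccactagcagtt
*Igtp*, chr11:58199497-58199556, plus strand: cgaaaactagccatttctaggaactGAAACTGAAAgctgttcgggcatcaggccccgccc
*Samhd1*, chr2:157135047-157135346, minus strand: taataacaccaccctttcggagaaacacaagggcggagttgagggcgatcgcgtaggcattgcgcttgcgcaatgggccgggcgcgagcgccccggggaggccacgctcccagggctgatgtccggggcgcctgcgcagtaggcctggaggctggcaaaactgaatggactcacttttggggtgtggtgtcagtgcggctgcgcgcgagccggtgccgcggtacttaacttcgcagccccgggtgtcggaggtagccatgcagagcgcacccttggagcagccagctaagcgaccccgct
*Oas3*, the member with the lowest adjusted p, has a single match that begins 75 bases before its start. *Oas1a*, *Isg15* and *Bst2* hold runs of overlapping matches, and *Isg15* has 3. *Ifit3* and *Ifit1*, both on chromosome 19, hold 2 matches each. The window of *Samhd1*, also called, is printed whole because it has no match, which says only that these letters are not in it. Of the 18 tested members with a match 16 had a positive log2 fold change (median 0.45, 1 called), and of the 14 tested members without a match 11 did (median 0.37, 1 called). Of all tested genes 49.3% had a positive log2 fold change, with a median of -0.0069, and 6.47% were called higher. *Oas2*, *Ifi27l2a*, *Ifi27*, *Mx1*, *Usp18*, *Dhx58*, *Zbp1*, *Rtp4*, *Parp9* and *Parp14* were not matched to the promoter table. The split by match therefore leaves out *Oas2* and *Ifi27l2a*, which were also called.

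**Figure D1:**
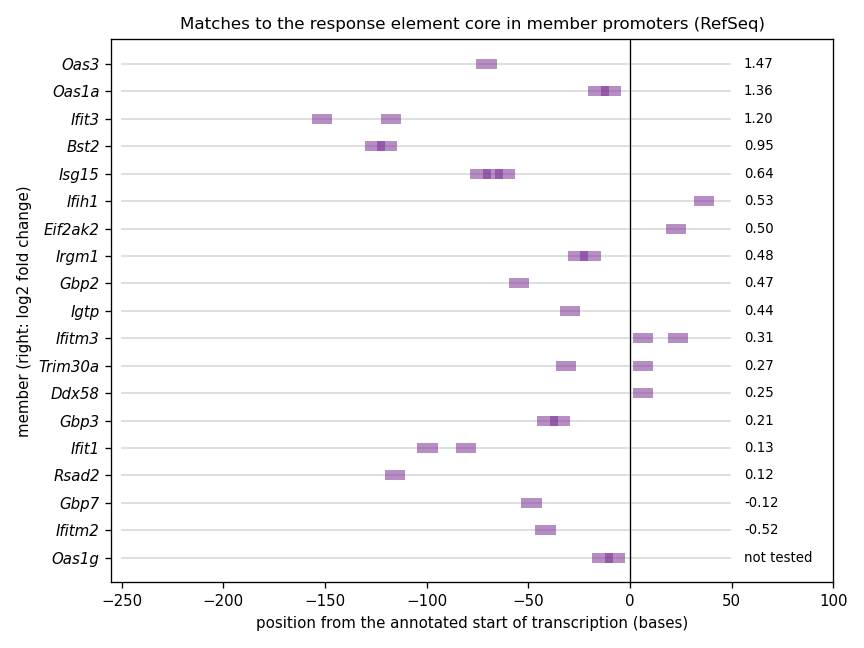
Positions of matches to the core of the interferon-stimulated response element (violet, darker where they overlap) in the promoters of 19 members, in bases from the annotated start of transcription, with 1 line per gene ordered by log2 fold change (printed at the right, *Rag1Cre-Nfatc1fl/fl* over *Nfatc1fl/fl*). The matches lie between 156 bases before and 41 bases after the start, and *Trim30a* combines 2 annotated starts.

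Most interferon response genes had higher values in *Rag1Cre-Nfatc1fl/fl* γδ thymocytes, and few passed the test. Of 42 tested members 4 were higher and 0 lower at an adjusted p under 0.01 and a log2 fold change past 0.5 (edgeR's quasi-likelihood test, Benjamini-Hochberg adjustment over 13185 genes, the thresholds of the study). The called members were *Oas3*, *Oas2*, *Ifi27l2a* and *Samhd1*, 9.52% of those tested, beside 6.47% of all tested genes called higher, 3.51% called lower and 9.98% called in either direction. No member was called lower by DESeq2 or limma-voom either, and at an unadjusted p under 0.05 there were 22 higher and 1 lower, where 20.1% of all tested genes were higher and 17.5% lower. The 12 tested markers of macrophages and dendritic cells, other cells the samples could hold, also had positive log2 fold changes, with a median of 1.49. The log2 fold change was positive in 35 of the 42 (83.3%), against 49.3% of all tested genes, and its median was 0.42 against -0.0069. Shares over the members are descriptions without a test, since the members were chosen with earlier results of these data known. The members also varied together, with control replicate 1 the highest control in 37 of 42. In 20 members (47.6%) every *Rag1Cre-Nfatc1fl/fl* library lay above every control library, which held for 23.3% of all tested genes. In 1 member, *Ifitm2*, every one lay below, against 23.4% of all tested genes, and the groups of the other 21 overlapped. At an adjusted p under 0.05 with no fold limit, 13 members were higher and 0 lower, where 13.2% of all tested genes were higher and 10.1% lower. The count of 4 came to 2, 2 and 8 without *Rag1Cre-Nfatc1fl/fl* replicates 1, 2 and 3 and to 6, 1 and 1 without control replicates 1, 2 and 3, and DESeq2 called 10 of 44 higher (5.75% of all genes it tested). With library size only in place of TMM, the median was 0.32 for the members and -0.11 for all tested genes, and the calls over all genes were 700 higher and 578 lower in place of 853 and 463. A change in RNA per cell, up or down, and a change in the number of cells of a type cannot be told apart in these bulk libraries.

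**Figure D2:**
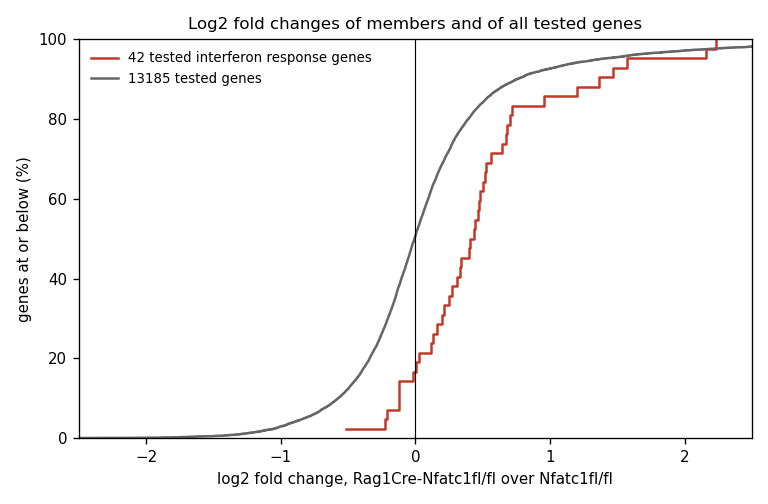
Cumulative share of genes (y axis, %) at or below each log2 fold change (x axis, *Rag1Cre-Nfatc1fl/fl* over *Nfatc1fl/fl*) for 42 tested interferon response genes (red) and 13185 tested genes (grey). The red curve lies to the right, with a median of 0.42 against -0.0069, and 83.3% of members lie above 0.

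Of the subfamilies the oligoadenylate synthetases had the largest ratio of summed levels and 2 of the 4 called genes. These enzymes are activated by double-stranded RNA and make the short oligoadenylates that switch on RNase L, and *Oas1a*, *Oas1g*, *Oas2* and *Oas3* lie in a cluster on chromosome 5. *Oas3* (ENSMUSG00000032661, GRCm38 chr5:120753098-120777661, minus strand) stood at 198, 219.9 and 188 CPM in *Rag1Cre-Nfatc1fl/fl* replicates 1, 2 and 3, against 92.0, 65.0 and 62.4 CPM in control replicates 1, 2 and 3. All 3 *Rag1Cre-Nfatc1fl/fl* libraries were more than 2 times as high as the highest control. The log2 fold change was 1.47 (SE 0.158, adjusted p = 0.000722), and the call held without any 1 library (adjusted p up to 0.00551). *Oas2* (chr5:120730333-120749853) was a low gene, at 7.25, 5.78 and 5.81 CPM against 2.97, 1.94 and 1.42 CPM in the controls. Its groups did not overlap and its log2 fold change was 1.57 (SE 0.277, adjusted p = 0.00604). The call of *Oas2* ended without *Rag1Cre-Nfatc1fl/fl* replicate 1 or 2 or control replicate 2 or 3 (adjusted p up to 0.0308, log2 fold change 1.36 to 1.63), and with log2(TPM + 1) or log2(TPM + 0.1) in limma (adjusted p = 0.0213 and 0.0283).

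The other members of this family differed from *Oas3* in their error or their direction. *Oas1a* had 46.3, 43.0 and 89.2 CPM in the *Rag1Cre-Nfatc1fl/fl* libraries, against 38.5, 14.6 and 16.1 CPM in the controls, that is 1.36 (SE 0.42) on the log2 scale, which did not pass (adjusted p = 0.0509). With 1 library left out it lay between 0.96 and 1.95 (adjusted p 0.0159 to 0.16). Its control replicate 1 came close to the lower *Rag1Cre-Nfatc1fl/fl* libraries, and 80.1% to 85.5% of its reads were unique, which leaves its value uncertain, as the mouse genome holds near-identical *Oas1* copies. *Oasl2*, an OAS-like gene, read 2.34, 27.6 and 23.97 CPM in *Rag1Cre-Nfatc1fl/fl* replicates 1, 2 and 3, against 2.41, 0.572 and 8.50 CPM in the controls. It had the highest log2 fold change of the members, 2.23, with the widest error (SE 0.979, adjusted p = 0.138). With 1 library left out it lay between 1.72 and 3.58, the highest without control replicate 3 (adjusted p 0.0413 to 0.317), and *Rag1Cre-Nfatc1fl/fl* replicate 1 lay at the level of control replicate 1. *Oasl1*, its neighbour and an inhibitor of *Irf7* translation in the mouse, had a log2 fold change of -0.21 with an SE of 0.268 (adjusted p = 0.604), with 13.0 to 16.6 CPM against 11.7 to 25.4 CPM. *Oas1g* had too few reads to be tested, at most 0.792 CPM. The summed level of the 6 genes was 267, 312 and 325 CPM in the *Rag1Cre-Nfatc1fl/fl* libraries, against 162, 94.2 and 103 CPM in the controls, a ratio of means of 2.52.

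**Figure D3:**
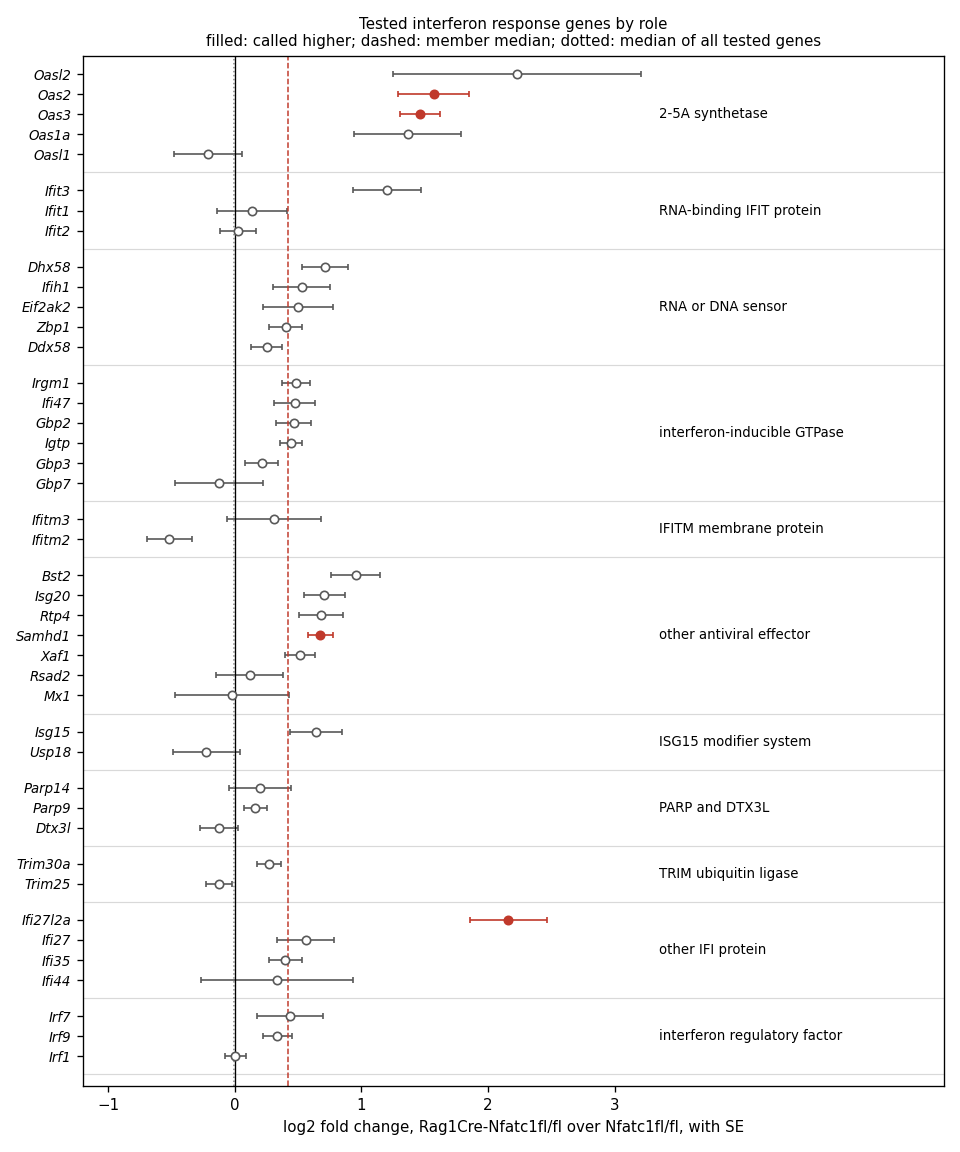
Log2 fold change (*Rag1Cre-Nfatc1fl/fl* over *Nfatc1fl/fl*, x axis) with its SE for the 42 tested members by role, 1 point per gene. Filled red points mark the 4 called members, the dashed line the member median of 0.42, and the dotted line the median of all tested genes, -0.0069; *Oasl2* has the highest value and the widest SE.

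The IFIT genes, which encode proteins that bind viral RNA and hold back its translation, gave 0 calls among 3 genes in edgeR. DESeq2 and limma-voom called 1, *Ifit3*. In edgeR 1 was higher and 0 lower at an unadjusted p under 0.05, beside 20.1% and 17.5% of all tested genes. *Ifit3* (chr19:34583531-34588731) stood at 48.1, 46.5 and 47.2 CPM in the *Rag1Cre-Nfatc1fl/fl* libraries, against 31.3, 14.1 and 16.2 CPM in the controls. Its groups were apart, with a log2 fold change of 1.203 (SE 0.271) and an adjusted p of 0.0165 in edgeR, over the threshold of 0.01. *Ifit3* was called by DESeq2 (adjusted p = 7.7e-05) and limma-voom (0.00932), and in edgeR with no filter (0.00136), with the replicate block (0.00746) and without *Rag1Cre-Nfatc1fl/fl* replicate 3 (0.00779) or control replicate 1 (0.000913), but not when 1 of the other 4 libraries was left out (adjusted p up to 0.0676). *Ifit1* had 36.5, 33.9 and 20.7 CPM against 38.9, 21.5 and 22.8 CPM in the controls, and *Ifit2* had 36.4, 34.2 and 27.8 CPM against 37.9, 28.3 and 30.6 CPM. In both, control replicate 1 held the highest value of all 6 libraries, and the log2 fold changes were 0.13 (SE 0.277) for *Ifit1* and 0.026 (SE 0.145) for *Ifit2*, or -0.068 for *Ifit2* with library size only. The level of *Ifit3* over that of *Ifit1* within a library was 1.32, 1.37 and 2.28 in *Rag1Cre-Nfatc1fl/fl* replicates 1, 2 and 3, against 0.806, 0.658 and 0.709 in the controls, and over that of *Ifit2* it was 1.32, 1.36 and 1.70 against 0.826, 0.498 and 0.528. These ratios do not depend on scaling between libraries, and they were chosen after the values had been seen. Of the *Ifit3* reads 80.9% to 86.0% were counted as unique, and how the rest were assigned is not stated, which leaves its value uncertain. *Ifit3b*, nearby on chromosome 19, had 15.8, 19.5 and 19.3 CPM against 9.77, 3.96 and 4.54 CPM in the controls, with 83.0% to 88.9% unique. The log2 fold change of *Ifit3b* was 1.58 (SE 0.318, adjusted p = 0.0107 in edgeR, not called).

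The genes with IFI names were led by *Ifi27l2a* (ENSMUSG00000079017, chr12:103442167-103443680, minus strand), a short interferon-induced gene beside *Ifi27*. Its level was 94.4, 102 and 160.1 CPM in *Rag1Cre-Nfatc1fl/fl* replicates 1, 2 and 3, against 38.2, 23.04 and 18.3 CPM in the controls. The lowest *Rag1Cre-Nfatc1fl/fl* library was more than 2 times the highest control, and the log2 fold change was 2.16 (SE 0.304, adjusted p = 0.00231). Without control replicate 2 or 3 the call ended (adjusted p = 0.0141 and 0.0116, log2 fold change 2.08 and 1.96). Per length it was the most abundant member by its mean over all libraries, with 602 TPM (the reads per exon length, scaled to a common sum) in the *Rag1Cre-Nfatc1fl/fl* libraries and 152 TPM in the controls.

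*Ifi27*, its neighbour, had 131, 141 and 236 CPM in the *Rag1Cre-Nfatc1fl/fl* libraries, against 133, 99.0 and 113 CPM in the controls. Here the groups overlapped, *Rag1Cre-Nfatc1fl/fl* replicate 3 stood apart, and the log2 fold change of 0.56 (SE 0.226) did not pass (adjusted p = 0.111). *Ifi47*, a GTPase gene, had 178, 189 and 276 CPM against 149.8, 153 and 161 CPM, with groups apart and a log2 fold change of 0.47 with an SE of 0.163 (adjusted p = 0.0717). It overlaps *Olfr56* on the same strand, and 98.3% to 99.0% of its reads were counted as unique. By mean TPM over all libraries *Ifi27l2a* (377), *Ifi27* (237), *Bst2* (212) and *Ifi47* (184) came first. *Ifi35* and *Ifi44* had log2 fold changes of 0.40 and 0.33, and *Ifi44*, at 4.18, 2.41 and 10.2 CPM against 7.83, 2.20 and 3.25 CPM, overlapped.

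The IFITM genes encode membrane proteins that stop viruses from entering cells, and they had few reads. *Ifitm1* had at most 0.138 CPM and was not tested. *Ifitm2* was the only member whose groups were apart downward, at 6.47, 7.15 and 10.1 CPM in the *Rag1Cre-Nfatc1fl/fl* libraries, against 11.2, 11.0 and 11.6 CPM in the controls. Its log2 fold change was -0.52 (SE 0.179, adjusted p = 0.0729). It was called lower without *Rag1Cre-Nfatc1fl/fl* replicate 3 (adjusted p = 0.00217), with the length trend removed (0.00258) and with log2(TPM + 1) (0.00999), and 69.6% to 74.1% of its reads were unique. *Ifitm3* had 1.42 to 3.48 CPM over all libraries and a log2 fold change of 0.31 (SE 0.371).

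**Figure D4:**
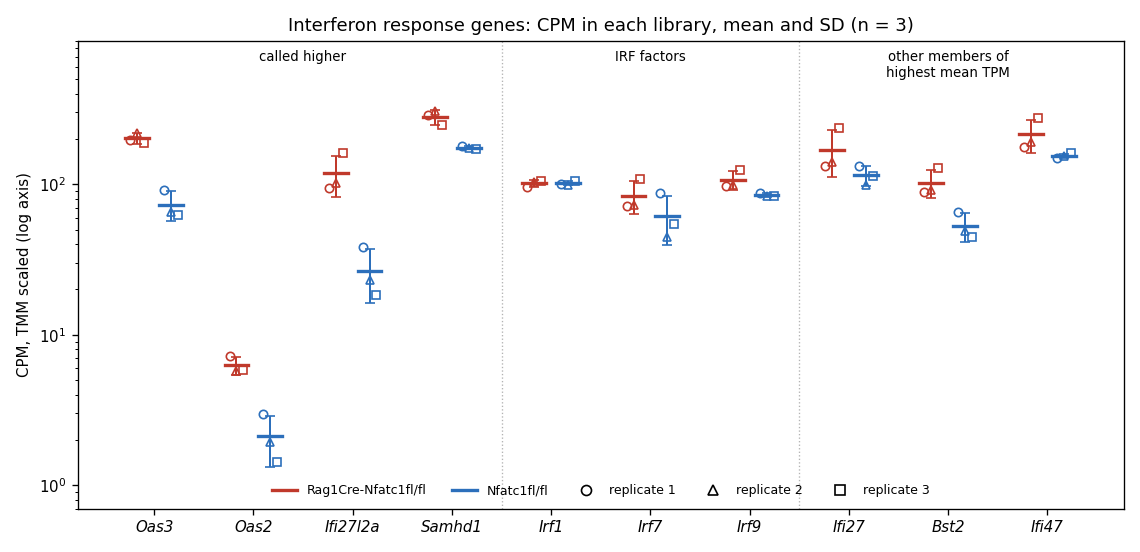
CPM (log axis) of the 4 called members, the 3 IRF genes and the other 3 members of the highest mean TPM, where symbols are libraries, horizontal lines group means and bars SDs (n = 3). *Rag1Cre-Nfatc1fl/fl* is red and left, *Nfatc1fl/fl* blue and right, and *Irf1* sits at 102 CPM in both groups.

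Sensors of foreign nucleic acid all had positive log2 fold changes, and 0 of 5 were called by edgeR (3 higher and 0 lower at an unadjusted p under 0.05, beside 20.1% and 17.5% of all tested genes, and *Dhx58* alone called by DESeq2, 0 by limma-voom). They were *Dhx58* (LGP2) at 0.72, *Ifih1* (MDA5) at 0.53, *Eif2ak2* (PKR, the kinase that stops translation) at 0.50, *Zbp1* at 0.40 and *Ddx58* (RIG-I) at 0.25. *Dhx58* stood at 35.9, 36.0 and 36.4 CPM in the *Rag1Cre-Nfatc1fl/fl* libraries against 29.1, 17.4 and 19.4 CPM in the controls (SE 0.182, adjusted p = 0.0259). However, *Dhx58os* overlaps *Dhx58* on the other strand, and the libraries are taken as not keeping strand. *Ifih1* and *Eif2ak2* overlapped, as *Rag1Cre-Nfatc1fl/fl* replicate 3 (21.01 and 15.7 CPM) lay below control replicate 1 (25.8 and 23.4 CPM), while *Rag1Cre-Nfatc1fl/fl* replicates 1 and 2 were at 31.3 and 33.1 CPM for *Ifih1* and at 29.6 and 30.6 CPM for *Eif2ak2*.

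The interferon-inducible GTPases, which gather on membranes around pathogens, had small positive values, with 1 exception, and 0 of 6 were called by edgeR, DESeq2 or limma-voom (4 higher and 0 lower at an unadjusted p under 0.05 in edgeR, beside 20.1% and 17.5% of all tested genes). *Irgm1* (log2 fold change 0.48), *Ifi47* (0.47), *Gbp2* (0.47) and *Igtp* (0.44) had groups apart upward, which held for 23.3% of all tested genes. *Gbp3* (0.21) and *Gbp7* (-0.12) overlapped. *Igtp* had 99.6, 96.0 and 102 CPM in the *Rag1Cre-Nfatc1fl/fl* libraries, against 78.5, 72.1 and 68.3 CPM in the controls. It had a small error (SE 0.0865) and an adjusted p of 0.00937, under the threshold, but its change was below the fold limit of 0.5, and *Irgm2* overlaps it on the same strand. *Gbp7* had 50.7, 51.2 and 19.3 CPM in *Rag1Cre-Nfatc1fl/fl* replicates 1, 2 and 3, against 54.7, 43.3 and 34.3 CPM in the controls. *Irgm1* and *Gbp2* had adjusted p values of 0.0189 and 0.0422.

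Among the 7 other antiviral effectors *Samhd1* was called, and 4 more were higher at an adjusted p under 0.05 (13.2% of all tested genes). *Rsad2* and *Mx1* had values near 0. *Samhd1* (ENSMUSG00000027639, chr2:157097533-157135265, minus strand), which breaks down the dNTPs that retroviruses need, was the member with the most reads. It stood at 287, 304 and 246 CPM in *Rag1Cre-Nfatc1fl/fl* replicates 1, 2 and 3, against 179, 174 and 171 CPM in the controls. The groups were apart, with an SD of 30.2 CPM in the *Rag1Cre-Nfatc1fl/fl* libraries and 4.28 CPM in the controls. The log2 fold change was 0.68 (SE 0.0991, adjusted p = 0.0028). Leaving out any library other than *Rag1Cre-Nfatc1fl/fl* replicate 3 ended the call (adjusted p 0.0103 to 0.0223, log2 fold change 0.61 to 0.69), and so did scaling by library size only (adjusted p = 0.0116) and limma on log2(TPM + 1) or log2(TPM + 0.1) (adjusted p = 0.0778 and 0.0834). Intron reads alone gave *Samhd1* a log2 fold change of 0.11 (adjusted p = 0.867) and *Oas3* 1.21 (adjusted p = 0.0177), neither of them called.

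*Bst2*, which encodes tetherin, a protein that holds budding virus on the cell, had 88.4, 91.3 and 128 CPM in the *Rag1Cre-Nfatc1fl/fl* libraries, against 65.8, 48.6 and 44.3 CPM in the controls. Its log2 fold change of 0.95 (SE 0.192) missed the threshold narrowly (adjusted p = 0.0105). *Isg20*, an exonuclease gene, was at 33.6, 35.0 and 37.4 CPM against 27.6, 19.0 and 18.3 CPM, a log2 fold change of 0.71 (adjusted p = 0.0176). *Rtp4*, overlapped by *Gm45338* on the same strand and *Masp1* on the other, and the pro-apoptotic gene *Xaf1* had values of 0.68 and 0.51 with groups apart (adjusted p = 0.0261 and 0.0182). *Rsad2*, the gene of viperin, had 18.5 to 21.2 CPM against 11.7 to 26.6 CPM and a log2 fold change of 0.12 (SE 0.264). *Mx1*, which many laboratory mouse strains carry in a defective form, had 1.14 to 2.32 CPM against 0.836 to 2.67 CPM and a value of -0.021 (SE 0.453).

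*Isg15*, a ubiquitin-like modifier, and *Usp18*, the protease that removes it and also damps IFNAR signalling, differed in sign. *Isg15* had 36.1, 33.4 and 49.5 CPM in the *Rag1Cre-Nfatc1fl/fl* libraries against 32.7, 21.1 and 22.4 CPM in the controls, with groups barely apart and a log2 fold change of 0.64 with an SE of 0.207 (adjusted p = 0.0583). *Usp18* had 44.9, 35.8 and 69.4 CPM against 76.8, 48.0 and 50.5 CPM, a value of -0.23 (SE 0.265). Neither passed. *Parp9*, *Parp14* and *Dtx3l*, whose products modify host and viral proteins with ADP-ribose and ubiquitin, had log2 fold changes of 0.16, 0.20 and -0.12, and all 3 overlapped. *Dtx3l* and *Parp9* overlap each other on opposite strands at their ends, where reads are taken as not separable by strand. At least 98.0% of *Dtx3l* and 98.7% of *Parp9* reads were counted as unique. The ubiquitin ligase genes *Trim25*, which acts on RIG-I, and *Trim30a* had -0.13 (SE 0.104) and 0.27 (SE 0.092), and only *Trim30a* had groups apart, at 132 to 144 CPM against 105 to 125 CPM.

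Of the IRF transcription factors among the members 0 of 3 were called by edgeR, DESeq2 or limma-voom (1 higher and 0 lower at an unadjusted p under 0.05 in edgeR, beside 20.1% and 17.5% of all tested genes). *Irf1*, which is induced by IFN-γ, had 95.7, 104 and 106 CPM in *Rag1Cre-Nfatc1fl/fl* replicates 1, 2 and 3, against 101, 98.4 and 105 CPM in the controls. The values interleave, and the log2 fold change was 0.0046 (SE 0.0819), or -0.097 with library size only. *Irf7*, the factor that amplifies type I interferon production, had 71.2, 72.7 and 108 CPM against 86.9, 44.7 and 54.1 CPM, a value of 0.44 (SE 0.261, adjusted p = 0.258) with control replicate 1 above the lower *Rag1Cre-Nfatc1fl/fl* libraries. *Irf9*, the DNA-binding part of ISGF3, had 97.1, 99.5 and 125 CPM against 88.0, 83.4 and 83.0 CPM. Its groups were apart and its log2 fold change was 0.34 (SE 0.113, adjusted p = 0.0656). *Rnf31* overlaps it on the same strand and *Phrf1* overlaps *Irf7* on the other, while 100% of the reads of *Irf9* and *Irf7* were counted as unique.

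Summed over the 44 members the level was 3021, 3069 and 3306 CPM in *Rag1Cre-Nfatc1fl/fl* replicates 1, 2 and 3, against 2571, 2062 and 2134 CPM in the controls. The means were 3132 ± 153 CPM and 2255 ± 275 CPM (SD, n = 3), a ratio of 1.39 in CPM and 1.47 in TPM. By subfamily the CPM ratio was 2.52 for the Oas genes, 1.61 for the Ifi genes, 1.37 for the Ifit genes, 1.32 for the others, 1.18 for the Irf genes and 1.05 for the Trim genes, which were at 0.967 in TPM. Of the difference of 877 CPM, *Oas3* made up 14.7%, *Samhd1* 11.9%, *Ifi27l2a* 10.5%, *Ifi47* 6.84%, *Ifi27* 6.23% and *Bst2* 5.66%. These sums are a description without a test, since the genes were chosen with results known.

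The libraries of a group were not alike over these genes. Control replicate 1 was the highest control in 37 of 42 members (88.1%), against 31.9% of all tested genes, and its median log2 distance from the mean of control replicates 2 and 3 was 0.43, against -0.011 over all genes. In 9 members (*Oasl1*, *Ifit1*, *Ifit2*, *Usp18*, *Mx1*, *Rsad2*, *Gbp7*, *Trim25* and *Dtx3l*) it was the highest of all 6 libraries. *Rag1Cre-Nfatc1fl/fl* replicate 3 was the highest of its group in 23 members (54.8%) and the lowest in 15 (35.7%), against 42.5% and 42.7% of all tested genes. Its distance from *Rag1Cre-Nfatc1fl/fl* replicates 1 and 2 ran with exon length, longer genes lying lower, with a Spearman correlation of -0.51 across the 42 members and -0.45 across 13127 tested genes. These are descriptions across genes of the same libraries. Control replicate 1 and *Rag1Cre-Nfatc1fl/fl* replicate 3 were also the libraries of their groups with the most reads of macrophage and dendritic cell markers. The 12 markers, none of which was at 0, summed to 113, 71.9 and 338 CPM in *Rag1Cre-Nfatc1fl/fl* replicates 1, 2 and 3, against 108, 38.3 and 33.9 CPM in the controls. All 12 had a positive log2 fold change, 3 had groups apart upward (23.3% of all tested genes), and 2 were higher at an adjusted p under 0.05 (13.2%). In edgeR 0 were called, and 5 were higher and 0 lower at an unadjusted p under 0.05 (20.1% and 17.5% of all tested genes). This was not particular to those markers. Erythroid markers summed to 16.1, 7.79 and 52.4 CPM against 28.9, 3.96 and 19.3 CPM in the same order of libraries. Sums of the B cell and thymic epithelium markers were also highest, within each group, in control replicate 1 and *Rag1Cre-Nfatc1fl/fl* replicate 3. Double-positive thymocyte markers summed to 466, 275 and 707 CPM against 463, 463 and 467 CPM. The part of any of these cells in the members' values was not tested. Of 10 plasmacytoid dendritic cell markers *Klk1* was at 0, *Siglech* had at most 3 reads in a library, and the sum was 643 to 810 CPM against 1231 to 1276 CPM. Most of it was *Ccr9*, a gene that T cells also express, and without it the sum was 149.8, 151 and 208 CPM in *Rag1Cre-Nfatc1fl/fl* replicates 1, 2 and 3, against 134, 105 and 105 CPM in the controls, every *Rag1Cre-Nfatc1fl/fl* library above every control. This split was chosen after the values had been seen. The member *Bst2* is on the list too, and without both genes the sums overlapped, at 61.4, 59.5 and 79.5 CPM against 68.5, 56.6 and 60.5 CPM. Of the 7 tested markers *Tlr7* was called higher and 2, *Ccr9* and *Tcf4*, lower. Without *Rag1Cre-Nfatc1fl/fl* replicate 3 and control replicate 1 together, an alternative chosen after the data had been seen, 19 of 42 members were higher and 1, *Ifitm2*, lower. Of all 13228 genes tested in that fit 7.98% were higher and 607 lower. Control replicate 1 was the highest control in 37 of 42 members, so leaving it out tends to raise their log2 fold changes. The count of 19 is therefore no separate support.

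**Figure D5:**
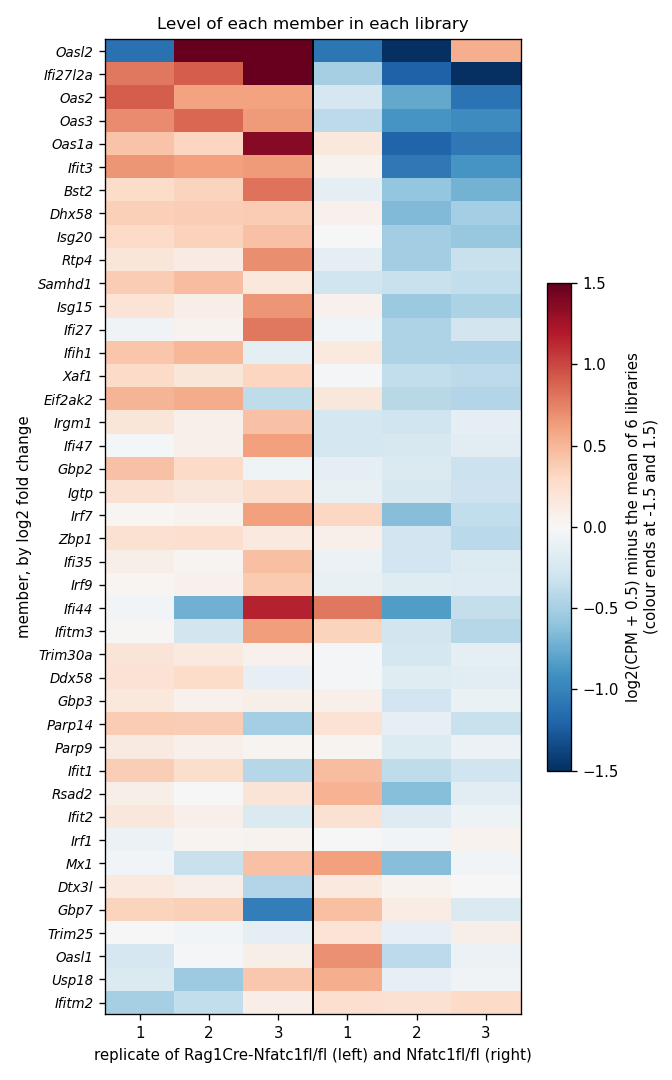
Level of each tested member in each library, as log2(CPM + 0.5) minus the mean of the 6 libraries (red high, blue low), with members ordered by log2 fold change, *Rag1Cre-Nfatc1fl/fl* replicates 1 to 3 at the left and *Nfatc1fl/fl* replicates 1 to 3 at the right. Control replicate 1 is the highest control in 37 of 42 members, and *Oasl2* is low in *Rag1Cre-Nfatc1fl/fl* replicate 1.

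Interferons themselves were hardly read. Of 21 ligand genes only *Ifng* passed the filter on low counts, with 18, 27 and 10 reads in the *Rag1Cre-Nfatc1fl/fl* libraries and 18, 27 and 18 in the controls (log2 fold change -0.086, SE 0.388). *Ifnb1* had 0 reads in every library. Of 5 tested receptor genes 4 had a negative log2 fold change, where 49.3% of all tested genes had a positive one. Of the 5, 1 was called lower, beside 3.51% of all tested genes. *Ifngr1*, the ligand-binding chain of the IFN-γ receptor, fell to 177, 159 and 169 CPM in the *Rag1Cre-Nfatc1fl/fl* libraries, against 374, 365 and 373 CPM in the controls (log2 fold change -1.14, SE 0.0813, adjusted p = 0.000102), and held its call without any 1 library. *Ifnar1*, *Ifnar2* and *Ifngr2* had -0.38, -0.35 and -0.40 and were not called (adjusted p = 0.103, 0.0126 and 0.0413). All of these had groups apart downward, which held for 23.4% of all tested genes. *Il10rb*, shared with type III interferon, had 0.15. Of the genes of the signal path, *Tyk2* had 0.11, *Jak2* 0.086 (-0.0044 with library size only), *Stat2* 0.0019 (-0.091 with library size only) and *Jak1* -0.15, and none of these was called by edgeR, DESeq2 or limma-voom or had an unadjusted p under 0.05 in edgeR.

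Of 10 negative regulators *Socs3* was lower (-0.60, SE 0.105, adjusted p = 0.00593) and the other 9 were not called. Of 19 genes of nucleic acid sensing, *Tlr7* (1.505), *Tlr3* (1.54) and the adaptor gene *Myd88* (0.61) were higher and 16 were not called, and of 6 further IRF genes *Irf4* (1.35) was higher. Of 87 tested genes of a longer list of interferon-stimulated genes 10 were higher and 1 lower, beside 6.47% and 3.51% of all tested genes. Their median log2 fold change was 0.18, and 40.2% had every *Rag1Cre-Nfatc1fl/fl* library above every control (23.3% of all tested genes). *Slfn1*, a T cell quiescence gene, reached 99.7, 113 and 126 CPM in the *Rag1Cre-Nfatc1fl/fl* libraries, against 15.7, 13.1 and 10.1 CPM in the controls (3.12), and *Ifi30*, a lysosomal thiol reductase gene, 86.1, 105 and 98.7 CPM against 21.2, 19.0 and 16.0 CPM (2.37). *Phf11b* (1.47) and *Shisa5* (0.85) were the next by adjusted p. Over all these lists 14 of 126 tested genes were higher and 3 lower, again beside 6.47% and 3.51% of all tested genes. Of the 126, 66.7% had a positive log2 fold change (49.3% of all tested genes). Control replicate 1 was the highest control in 67.5% (31.9% of all tested genes). The calls of *Socs3*, *Tlr3* and *Myd88* were lost without at least 1 library (adjusted p up to 0.0365, 0.0362 and 0.0178), and leaving out 1 library at a time gave 6 to 23 higher genes and 1 to 5 lower over these lists.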

How the data were processed

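RNA-seq was performed on 3 *Rag1Cre-Nfatc1fl/fl* and 3 *Nfatc1fl/fl* libraries of γδ thymocytes, with groups and replicate numbers as labelled. The authors deposited whole-number read counts per gene (total, unique, exon and intron). Per the study's methods reads were trimmed by 10 bases with cutadapt and aligned to GRCm38 with STAR 2.7 and counted with featureCounts (Rsubread). The methods do not state whether strand was kept, and the library kit they name is taken here as one that does not keep it. The columns of the deposited tables are not those of featureCounts, and how they treat reads in overlapping genes is not stated. For the main test, edgeR 4.0.16 (R 4.3.3) was run on total gene reads with filterByExpr, TMM, glmQLFit, glmQLFTest and a single genotype term, over 13185 of 21780 genes with a read, with Benjamini-Hochberg adjustment. The common biological coefficient of variation was 0.154. TPM was recomputed from exon reads and exon lengths. The study tested with DESeq2, which was an alternative here (DESeq2 1.42.0), beside limma 3.58.1 on voom values or log2(TPM + 1) and log2(TPM + 0.1), other scalings, no filter, unique, exon and intron reads, a replicate block, other thresholds and each library left out. The length trend removal and the exclusion of 2 libraries together were added after the data had been seen. The main test was also checked with simulated counts. The members, the lists and the rules were chosen with earlier results of these data known. Values per library are given for called members, for *Irf1*, *Irf7* and *Irf9* and for the 4 members of highest mean TPM, and further genes with per-library values were chosen after their values had been seen. Promoters came from RefSeq tables of GRCm38.p6. Python 3.11.15 with matplotlib 3.10.9 drew the figures. The depth of 20734771 to 22638531 reads per library limits members under 1 CPM.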

Additional observations from a re-analysis of the deposited data

How the results depend on the processing

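The count of members called higher was 4, with 0 lower. It was 11 with no filter, 10 with DESeq2, 0 with intron reads (19 members tested), 2 with log2(TPM + 1) or log2(TPM + 0.1) and 13 at an adjusted p under 0.05. Without *Rag1Cre-Nfatc1fl/fl* replicate 3 and control replicate 1 together it was 19, an exclusion that by itself tends to raise the count. Leaving out 1 library at a time gave 1 to 8 higher and 0 to 1 lower. The lower count was 1 (*Ifitm2*) with log2(TPM + 1), with the length trend removed and without those 2 libraries. Of the 126 other pathway genes tested 14 were higher and 3 lower, beside 6.47% and 3.51% of all tested genes. Their higher count was 9 with library size only, 24 with no filter, 25 with DESeq2, 3 with intron reads, 6 with either TPM scale, 30 without those 2 libraries, 33 at an adjusted p under 0.05 and 8 with a fold limit of 1, and 6 to 23 with 1 library left out. Their lower count was 1 with intron reads, log2(TPM + 0.1) or a fold limit of 1, 8 at an adjusted p under 0.05, and 1 to 5 with 1 library left out. The ratio of summed levels, 1.39, lay between 1.33 and 1.49 with 1 library left out. The causes were not tested. With RLE or upper-quartile factors, unique reads and exon reads the counts of members called were 4, 4, 5 and 4.

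Log2 fold changes that turned sign were, with library size only, *Ifit2* (-0.068), *Irf1* (-0.097), *Jak2* (-0.0044) and *Stat2* (-0.091). With log2(TPM + 1) they were *Ifit1* (-0.0089), *Ifit2* (-0.12), *Irf1* (-0.15), *Jak2* (-0.10), *Tyk2* (-0.048) and *Stat2* (-0.15), and with log2(TPM + 0.1) -0.011, -0.13, -0.15, -0.11, -0.050 and -0.16 in the same order. *Stat2* turned with limma-voom (-8.8e-05), exon reads (-0.0031) and upper-quartile factors (-0.00047), and *Mx1* with limma-voom (0.057). Intron reads turned *Ifi35* (-0.13), *Irgm1* (-0.35), *Trim25* (0.50), *Parp9* (-0.058), *Parp14* (-0.0056), *Ifnar1* (0.024), *Ifngr2* (0.11), *Il10rb* (-0.19) and *Jak1* (0.0090). With 1 library or those 2 together left out, the log2 fold change lay between -0.42 and 0.18 for *Oasl1*, -0.016 and 0.67 for *Ifit1*, -0.056 and 0.26 for *Ifit2*, -0.42 and 1.03 for *Ifi44*, -0.038 and 0.65 for *Ifitm3*, -0.026 and 0.051 for *Irf1*, -0.52 and 0.020 for *Usp18*, -0.34 and 0.49 for *Mx1*, -0.12 and 0.49 for *Rsad2*, -0.33 and 0.39 for *Gbp7*, -0.22 and 0.081 for *Dtx3l*, -0.27 and 0.077 for *Jak1*, -0.072 and 0.29 for *Jak2* and -0.097 and 0.23 for *Stat2*.

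The main test did not pair libraries by replicate number. Same-numbered libraries had correlations of 0.026, 0.183 and 0.005 in their deviations, and the others -0.150 to 0.0937. With 3 libraries per group these values cannot decide whether the samples were paired. With the replicate block 5 members were higher and 0 lower, and *Mx1* (0.055) and *Stat2* (-0.0030) turned.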
